A study of Mus musculus with 2 samples.

Results

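The WNT ligands, their Frizzled receptors and the secreted proteins that modulate them were examined in SOX9iresGFP+ cells of the early postnatal mouse pituitary. Members were taken by symbol, as every *Wnt*, *Fzd*, *Sfrp*, *Dkk* and *Rspo* gene among the 31055 features, which gave 42 genes: 19 WNT ligands, 10 Frizzled receptors, 4 secreted Frizzled-related proteins, 5 Dickkopf proteins and 4 R-spondins. The rule uses symbols only, although it was written with earlier results of these data known. The cells came from *Sox9iresGFP/+* mice at postnatal day 3, and each of the 2 libraries pooled cells sorted from 3 pituitaries, all male in one library and all female in the other. The paper describes GFP as outlasting SOX9, so that the sorted cells need not all have still made SOX9. Since every animal carried the same allele and nothing was treated, the comparisons are between cell classes within the libraries.

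WNT proteins are lipid-modified secreted ligands that bind Frizzled receptors, either with the co-receptors LRP5 and LRP6 to stabilise β-catenin or with other co-receptors to act on cell polarity and movement. Secreted Frizzled-related proteins bind WNTs outside the cell, Dickkopf proteins block the LRP co-receptors, and R-spondins, through LGR receptors, keep Frizzleds at the cell surface by holding back the ligases that remove them. In the pituitary, WNT signalling is known for its part in the growth of the primordium and in the expansion of the lineages that arise from the stem cells.

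After filtering, 10410 male and 5711 female cells remained, with 105883748 and 62830305 unique molecular identifiers (UMIs, counts of distinct captured transcripts) and medians of 8902.5 and 9789 UMIs per cell. The libraries shared 18 cell barcodes. Cells were put in classes by raw UMIs of marker genes, with no member among them, and the names carry "-like" because they rest on those markers alone. Stem-like cells had at least 2 *Sox2* UMIs and 4 of 8 stem cell markers, without passing the next gate, and numbered 3004 male and 3312 female cells. Differentiating-like cells had at least 5 of 10 markers of stem cells leaving that state, such as *Dll1* and *Gadd45g*, and numbered 1230 and 855. Endocrine-like cells, recognised by *Cga*, *Pou1f1* or *Pomc*, numbered 1358 and 400, and mesenchymal-like cells, with at least 5 of 9 markers such as *Dcn* and *Pdgfra*, numbered 648 and 308. Pituicyte-like cells, with at least 3 of 6 markers of the neural lobe's glia, were 10 male cells and no female cell. Another 3588 male and 690 female cells passed no gate, and 572 and 146 passed more than 1. The gates count markers, so that cells near a limit were many: 570 male and 369 female cells had exactly 5 differentiating markers, and 567 and 305 had 1 fewer.

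The labels call the sorted cells stem cells, yet the classes differed in their defining markers. *Epcam*, an epithelial adhesion gene, was at 2317 and 2195 counts per 1000000 UMIs (CPM) in male and female stem-like cells, at 1358 and 1447 CPM in endocrine-like cells, and at 88.1 and 29.1 CPM in mesenchymal-like cells. The 9 mesenchymal markers together reached 15890 and 18490 CPM in mesenchymal-like cells, led by *Dcn* with 5088 and 6161 CPM, against 25.3 and 21.4 CPM in stem-like cells. All 4 epithelial markers were at 0 in the 10 pituicyte-like cells. The endocrine-like class was composed differently in the libraries: it had 614 gonadotroph-like cells in the male library and 77 in the female one. The 6 markers of the POMC lineage, led by *Pomc*, summed to 217 CPM in male and 98.2 CPM in female stem-like cells, and the share of free RNA or doublets in this was not tested.

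Levels below are CPM of pooled UMIs: the UMIs of a gene were added up over each class and library and scaled by the total of that sum, and are given as male and then female. UMIs from the 3′ end count molecules and are not divided by gene length, but capture differs between genes, so that levels of different genes are compared only roughly. In a sum over cells, fewer expressing cells and fewer transcripts per cell cannot be told apart. Differences between classes were tested with edgeR's quasi-likelihood test on 9 sums of class and library, with the library as a term and Benjamini-Hochberg adjustment over 15737 genes. The replicates of a class are 2 libraries that also differ in sex, and p-values measure the spread between these sums only.

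Of the 42 members, 39 had at least 1 UMI in the cells kept. *Wnt7a*, *Wnt8a* and *Dkk4* had none, and *Wnt16*, *Dkkl1*, *Wnt3a*, *Wnt9b*, *Wnt1* and *Wnt8b* had too few to be tested. Together the members took 0.0435% of the male and 0.0519% of the female UMIs. The minimum on counts was passed by 32 members in the fit of the main classes, and 17 members reached 10 CPM in both libraries in at least 1 class. Among these 17, the highest of the 4 classes present in both libraries was the mesenchymal-like class for 9, the stem-like class for 6, the differentiating-like class for 2 and the endocrine-like class for none. A member could pass the 10 CPM limit through its highest class alone, as *Dkk2*, *Dkk3*, *Rspo3*, *Sfrp1*, *Wnt4*, *Wnt9a* and *Sfrp5* did. The tally is thus partly set by that limit. The range of the 2 libraries in the highest class lay above that of the next class for 15 of the 17, the exceptions being *Wnt5a* and *Fzd1*. For members that passed through 1 class alone, this separation was partly set by the same limit. Members below the limit could show it too, as *Wnt16* and *Wnt9b* did at under 1 CPM. The share of all genes with such a separation was not computed, so that nothing is concluded from the count.

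**Figure D1:**
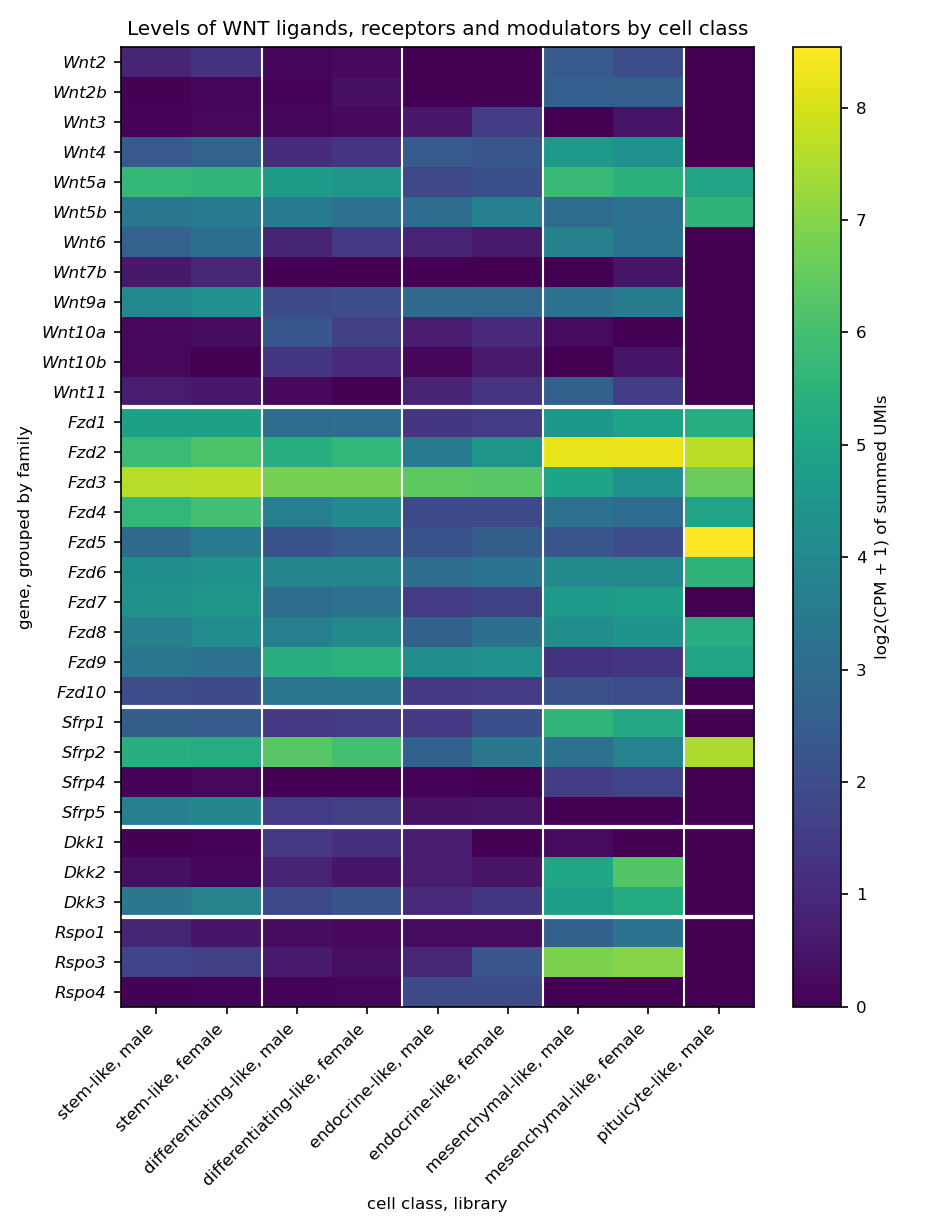
Heat map of levels, as log2(CPM + 1), of 32 members in the 9 sums of cell class and library (31 members called in at least 1 comparison, and *Wnt5b*). *Fzd3* was the brightest gene in stem-like cells and *Fzd2* and *Rspo3* in mesenchymal-like cells.

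In differentiating-like against stem-like cells, 6 of the 32 tested members were higher and 18 lower, which is 18.8% and 56.2% of them, beside 22.5% and 28.5% of all genes tested (51.0% in either direction). The median log2 difference was -1.04 over the members and -0.04 over all genes. In endocrine-like against stem-like cells, 5 members were higher and 18 lower (15.6% and 56.2%, with 31.7% and 32.3% of all genes, 64.0% in either direction), with a median of -1.29. In mesenchymal-like against stem-like cells the counts were 13 higher and 7 lower (40.6% and 21.9%, with 25.1% and 30.0% of all genes, 55.1% in either direction), with a median of 0.34. All of these comparisons share the stem-like sums as their reference.

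Among the ligands, *Wnt5a*, the best known ligand of the β-catenin-independent branch (ENSMUSG00000021994, chr14:28504750-28527448 in mm10), was at 50.7 and 47.0 CPM in stem-like cells and at 54.2 and 44.1 CPM in mesenchymal-like cells. These ranges overlapped, with a log2 difference of 0.01 ± 0.10 (SE; adjusted p = 0.98). In differentiating-like cells *Wnt5a* was at 24.5 and 21.8 CPM, below both stem-like sums, with a log2 difference of -1.07 ± 0.09 (adjusted p = 2.5e-06). In endocrine-like cells it was at 2.57 and 3.2 CPM, with a log2 difference of -4.25 ± 0.14 (adjusted p = 6e-10). *Wnt5a* RNA was thus found on both sides of the epithelial and mesenchymal divide. Of the 4 classes present in both libraries, it was lowest in endocrine-like cells. With each cell thinned to 5000 UMIs, 21.1% of male and 19.1% of female stem-like cells had a *Wnt5a* UMI, as did 18.2% and 18.3% of mesenchymal-like cells and 1.15% and 1.02% of endocrine-like cells. Before thinning, the stem-like shares were 40.2% and 33.3%. The median depth of the thinned cells was 10851 and 9348.5 UMIs in stem-like cells and 14141.5 and 13083.5 in endocrine-like cells, and cells under 5000 UMIs were left out (249 and 78 stem-like, 138 and 6 endocrine-like cells).

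*Wnt9a*, a ligand best known from the developing joint (chr11:59306928-59333552), was at 15.0 and 19.1 CPM in stem-like cells, above its 8.64 and 11.1 CPM in mesenchymal-like, 6.64 and 6.39 CPM in endocrine-like and 2.90 and 3.02 CPM in differentiating-like cells. The log2 difference was -2.49 ± 0.16 in differentiating-like cells (adjusted p = 2.6e-07), -1.38 ± 0.15 in endocrine-like cells (adjusted p = 9e-06) and -0.82 ± 0.18 in mesenchymal-like cells (adjusted p = 0.0025). Of the 4 classes, *Wnt9a* was thus lowest in differentiating-like cells, where *Wnt5a* was lowest in endocrine-like cells. *Wnt5b*, the close relative of *Wnt5a*, was never called, and its values are given because of their spread over the endocrine lineages, a choice made after they were seen. It was at 9.16 and 10.6 CPM in stem-like cells, 10.3 and 8.38 in differentiating-like, 6.85 and 12.1 in endocrine-like and 6.87 and 8.04 in mesenchymal-like cells, ranges that overlapped between most classes.

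*Wnt4*, known for its part in the growth of pituitary cell types, and *Wnt6* were higher in mesenchymal-like and lower in differentiating-like than in stem-like cells. *Wnt4* was at 23.6 and 18.8 CPM in mesenchymal-like and 4.27 and 5.59 CPM in stem-like cells (log2 difference 2.13 ± 0.21, adjusted p = 4.2e-06), and at 1.13 and 1.42 CPM in differentiating-like cells (-1.95 ± 0.26, adjusted p = 7.1e-05). *Wnt6* was at 12.2 and 8.43 CPM in mesenchymal-like and 5.45 and 7.72 CPM in stem-like cells (0.74 ± 0.27, adjusted p = 0.038), a call that was lost with DESeq2, without the library term and with stricter gates. Of the 12 ligands tested, 5 were higher and 1, *Wnt9a*, lower in mesenchymal-like cells, beside 25.1% and 30.0% of all genes. *Wnt2b* was at 4.91 and 4.98 CPM there, from 38 UMIs, against 5 UMIs in stem-like cells (log2 difference 6.10 ± 0.65, adjusted p = 1.8e-05). *Wnt2* was at 4.51 and 3.06 CPM in mesenchymal-like and 0.829 and 1.41 CPM in stem-like cells (adjusted p = 0.0046), a call lost with DESeq2. It had no UMI in endocrine-like cells, at least 9.17-fold lower than in stem-like cells when set against a floor of 3 counts over the class. *Wnt11* was at 5.10 and 1.92 CPM in mesenchymal-like and 0.577 and 0.459 CPM in stem-like cells (adjusted p = 0.0011).

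*Wnt10a* and *Wnt10b*, paralogous ligands of the β-catenin branch, were the WNT ligands that were higher in differentiating-like cells. *Wnt10a* was at 4.02 and 2.10 CPM there, against 0.126 and 0.229 CPM in stem-like cells (100 and 13 UMIs; log2 difference 4.10 ± 0.49, adjusted p = 3.3e-05). *Wnt10b* was at 1.56 and 1.09 CPM, against 0.126 CPM in male and none in female stem-like cells (42 and 5 UMIs; 4.20 ± 0.79, adjusted p = 0.00099), a call lost with DESeq2. Both were of low level but their ranges lay above those of stem-like cells in each library. In the genome *Wnt10a* lies 6.19 kb from *Wnt6*, which was lower in these cells (0.858 and 1.68 CPM; -2.41 ± 0.30, adjusted p = 4.4e-05), and *Wnt10b* lies 11.7 kb from *Wnt1*, which was too low to be tested. *Wnt7b* had 51 UMIs in stem-like cells (0.502 and 0.889 CPM) and none in differentiating-like or endocrine-like cells, at least 6.96-fold and 5.70-fold lower. *Wnt3* was the ligand with the largest log2 difference in favour of endocrine-like cells, at 0.515 and 1.95 CPM against 0.0502 and 0.143 CPM in stem-like cells (21 and 7 UMIs; 3.43 ± 0.66, adjusted p = 0.00077). *Wnt10a* was also called there, at 0.566 and 1.07 CPM (adjusted p = 0.035), a call lost with DESeq2, without cells of high doublet score and without cycling cells. Its log2 difference of 1.83 was 2.15, 1.96 and 1.75 under these alternatives, so that its size changed little.

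The Frizzled receptors summed to 398 and 444 CPM in stem-like cells, 256 and 279 in differentiating-like, 134 and 151 in endocrine-like and 431 and 438 in mesenchymal-like cells. The receptor that led the sum differed: *Fzd3* gave 49.4% and 45.7% of it in stem-like cells, and *Fzd2* gave 70.8% and 71.1% in mesenchymal-like cells. All 10 receptors were tested. In differentiating-like against stem-like cells 2 were higher and 7 lower (all genes 22.5% and 28.5%), in endocrine-like cells 1 was higher and 9 lower (all genes 31.7% and 32.3%), and in mesenchymal-like cells 2 were higher and 4 lower (all genes 25.1% and 30.0%).

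*Fzd3*, a receptor known for axon guidance and planar cell polarity (ENSMUSG00000007989, chr14:65192449-65262463), was at 197 and 203 CPM in stem-like cells. It was at 110.2 and 111 CPM in differentiating-like, 82.8 and 79.9 CPM in endocrine-like and 29.8 and 19.2 CPM in mesenchymal-like cells. The classes followed this order in both libraries without overlap, and the log2 differences from stem-like cells were -0.84 ± 0.09 (adjusted p = 1.3e-05), -1.36 ± 0.09 (adjusted p = 2.1e-07) and -2.98 ± 0.12 (adjusted p = 2.9e-09). In cells thinned to 5000 UMIs, 58.1% and 60.2% of stem-like, 37.4% and 37.4% of differentiating-like and 8.26% and 9.32% of mesenchymal-like cells had a *Fzd3* UMI. Unthinned, 79.8% and 78.7% of stem-like cells had one. *Fzd2* (ENSMUSG00000050288, chr11:102604396-102608058) was highest in the mesenchyme, at 305 and 311 CPM in mesenchymal-like, 55.7 and 70.3 CPM in stem-like, 41.2 and 49.3 CPM in differentiating-like and 10.3 and 22.2 CPM in endocrine-like cells. Its log2 difference between mesenchymal-like and stem-like cells was 2.30 ± 0.14 (adjusted p = 8e-08). The decrease from stem-like to differentiating-like cells was -0.46 ± 0.14 (adjusted p = 0.017) and was not called with DESeq2 or without the library term.

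*Fzd4*, a receptor that also binds the non-WNT ligand norrin, and *Fzd1* and *Fzd7*, closely related receptors of the β-catenin branch, fell from stem-like to differentiating-like cells and were lowest in endocrine-like cells. *Fzd4* was at 49.7 and 63.1 CPM in stem-like, 11.5 and 15.6 CPM in differentiating-like and 2.78 and 2.66 CPM in endocrine-like cells (log2 differences -2.05 ± 0.11, adjusted p = 6.4e-08, and -4.33 ± 0.15, adjusted p = 8.9e-10). It differed from *Fzd1* and *Fzd7* in the mesenchyme, at 8.24 and 6.89 CPM (-2.82 against stem-like cells), where *Fzd1* was at 22.4 and 29.9 CPM and *Fzd7* at 23.8 and 26.4 CPM. In stem-like cells *Fzd1* was at 27.6 and 27.8 CPM and *Fzd7* at 19.2 and 22.0 CPM, and neither difference from the mesenchyme was called (adjusted p = 0.44 and 0.082). In differentiating-like cells *Fzd1* was at 7.08 and 7.29 CPM and *Fzd7* at 7.03 and 8.13 CPM (adjusted p = 3.4e-07 and 1.5e-06). *Fzd6*, a polarity receptor, was at 18.2 and 19.7 CPM in stem-like, 13.3 and 13.8 in differentiating-like, 7.21 and 8.52 in endocrine-like and 15.5 and 16.1 in mesenchymal-like cells. *Fzd8* was at 12.2 and 16.6 CPM in stem-like and 11.8 and 15.1 CPM in differentiating-like cells, where the ranges overlapped (adjusted p = 0.60), and at 17.5 and 20.3 CPM in mesenchymal-like cells (0.41 ± 0.14, adjusted p = 0.030), a call lost under 4 alternatives. *Fzd5* was at 6.65 and 10.5 CPM in stem-like cells and lower in each of the other 3 classes, where it was between 3.06 and 4.79 CPM.

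*Fzd9* and *Fzd10* were the receptors that were higher in differentiating-like cells. *Fzd9* (ENSMUSG00000049551, chr5:135248938-135251230) was at 40.8 and 44.6 CPM there, 17.7 and 18.8 CPM in endocrine-like, 9.19 and 8.37 CPM in stem-like and 1.37 and 1.53 CPM in mesenchymal-like cells. The ranges of these classes did not overlap, and the log2 difference from stem-like cells was 2.29 ± 0.10 in differentiating-like (adjusted p = 2.1e-08) and 0.98 ± 0.12 in endocrine-like cells (adjusted p = 1.8e-05). After thinning, 16.7% and 20.6% of differentiating-like cells had a *Fzd9* UMI, against 4.86% and 4.14% of stem-like and 0.620% and 0.358% of mesenchymal-like cells, and 40.9% and 39.8% of differentiating-like cells had one before thinning. The median depth of the thinned differentiating-like cells was 13920 and 12634 UMIs and that of the mesenchymal-like cells 8451 and 8037. *Fzd10*, on the same chromosome, was at 9.44 and 9.64 CPM in differentiating-like and 3.06 and 2.95 CPM in stem-like cells (1.67 ± 0.17, adjusted p = 8.9e-06), but at 1.65 and 1.78 CPM in endocrine-like cells.

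**Figure D2:**
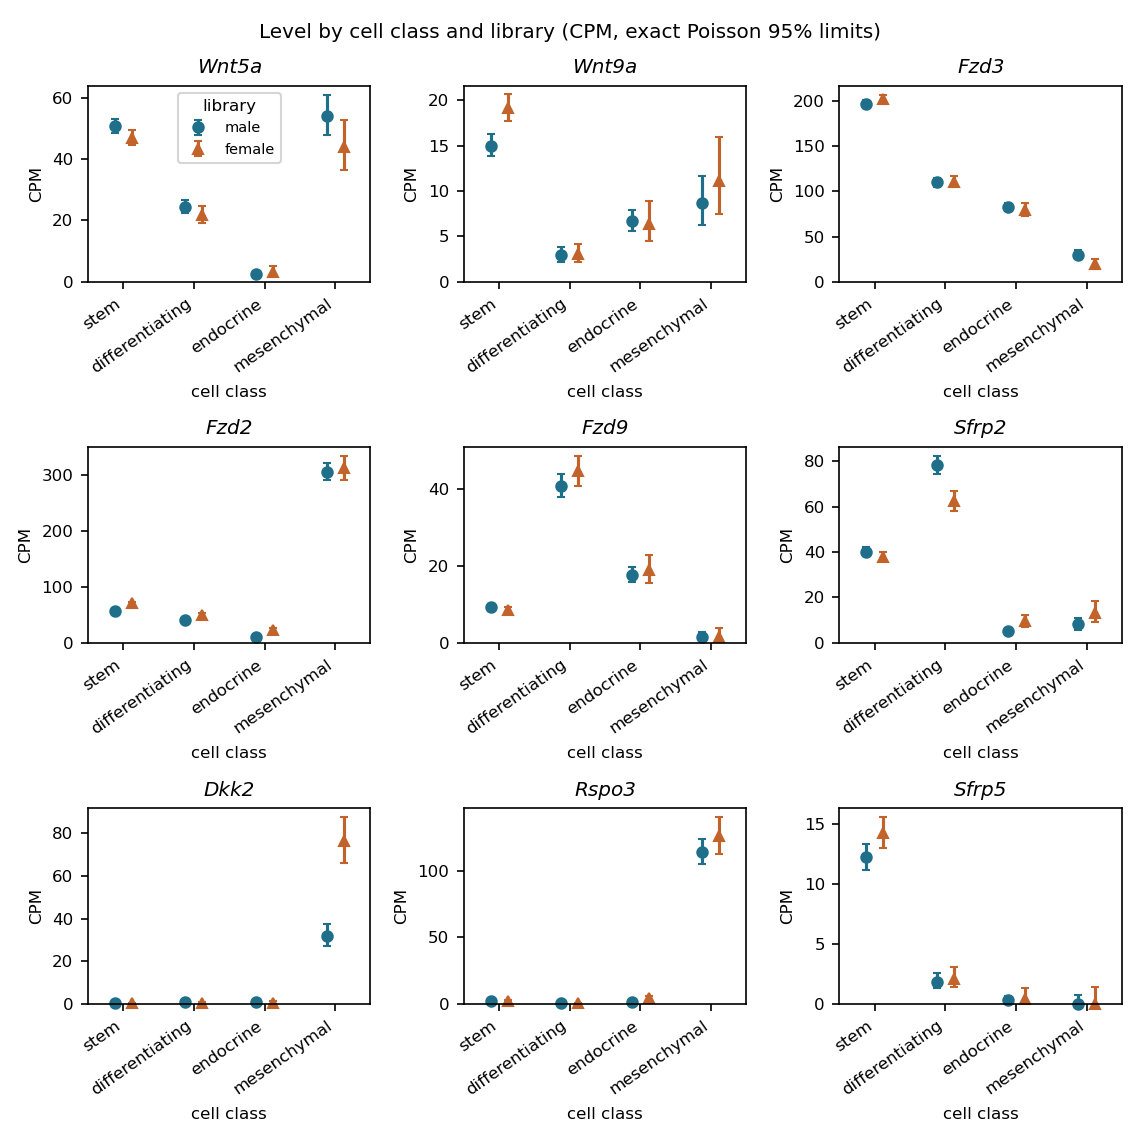
Levels in CPM of 9 members in the 4 classes present in both libraries, with a point per library and bars for exact Poisson 95% limits, which cover counting error only. *Fzd3* descended from stem-like to mesenchymal-like cells, *Fzd9* peaked in differentiating-like cells at 40.8 and 44.6 CPM, and *Rspo3*, *Dkk2* and *Fzd2* stood highest in mesenchymal-like cells.

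Among the secreted Frizzled-related proteins, which bind WNTs outside the cell, *Sfrp2* led in the 3 epithelial classes and *Sfrp1* in the mesenchyme. *Sfrp2* was at 78.3 and 62.3 CPM in differentiating-like cells, 40.1 and 37.9 CPM in stem-like, 8.05 and 13.0 CPM in mesenchymal-like and 5.30 and 9.41 CPM in endocrine-like cells. It was higher in differentiating-like than in stem-like cells by 0.87 ± 0.15 on the log2 scale (adjusted p = 0.00055) and lower in endocrine-like cells (-2.66 ± 0.21, adjusted p = 6.5e-07). *Sfrp2* gave 95.7% and 94.1% of the family's UMIs in differentiating-like cells. *Sfrp5* was at 12.2 and 14.3 CPM in stem-like cells, 1.82 and 2.10 CPM in differentiating-like cells (-2.74 ± 0.19, adjusted p = 7.8e-07) and 0.309 and 0.355 CPM in endocrine-like cells, and had no UMI in mesenchymal-like cells against 984 in stem-like cells, at least 33.8-fold lower. *Sfrp1* was at 47.3 and 34.9 CPM in mesenchymal-like and 4.67 and 4.62 CPM in stem-like cells (3.16 ± 0.20, adjusted p = 1.3e-07), and *Sfrp4* was at 1.96 and 2.30 CPM in mesenchymal-like cells, from 16 UMIs. Of the 4 classes present in both libraries, *Sfrp5* was thus highest in stem-like and *Sfrp2* in differentiating-like cells.

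Of the Dickkopf genes, *Dkk2* (ENSMUSG00000028031, chr3:132085292-132180304) was at 32.0 and 76.2 CPM in mesenchymal-like cells and under 1 CPM in stem-like, differentiating-like and endocrine-like cells. The log2 difference from stem-like cells was 7.90 ± 0.44 (adjusted p = 3.7e-08). The female mesenchymal-like level lay well above the male one, and both lay far above every level in the other classes. *Dkk3*, a divergent family member that does not act as a typical LRP antagonist, was at 26.7 and 37.2 CPM in mesenchymal-like, 9.44 and 13.0 CPM in stem-like, 2.74 and 3.52 CPM in differentiating-like and 1.03 and 1.60 CPM in endocrine-like cells. *Dkk1*, a classical inhibitor of β-catenin signalling, was at 1.66 and 1.26 CPM in differentiating-like cells, from 46 UMIs, against 3 UMIs in stem-like cells, a ratio of 37.5 with counting limits of 12 and 188. It was also called in endocrine-like cells, where all 12 UMIs were in the male library (0.618 CPM) and none in the female one.

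The R-spondins were highest in the mesenchyme as a family, with a sum of 120 and 135 CPM in mesenchymal-like cells against 4.43 and 6.92 CPM in endocrine-like, 3.77 and 3.10 CPM in stem-like and 0.805 and 0.503 CPM in differentiating-like cells. *Rspo3* (ENSMUSG00000019880, chr10:29452416-29535867) gave 95.7% and 93.5% of the mesenchymal sum. It was at 115 and 126.0 CPM in mesenchymal-like, 2.29 and 2.07 CPM in stem-like and 0.537 and 0.251 CPM in differentiating-like cells, with log2 differences from stem-like cells of 5.77 ± 0.24 (adjusted p = 3.3e-09) and -2.31 ± 0.54 (adjusted p = 0.0037). After thinning, 34.1% and 37.3% of mesenchymal-like cells had a *Rspo3* UMI, against 1.34% and 0.835% of stem-like cells, and 36.9% and 46.8% of mesenchymal-like cells had one before thinning. *Rspo1* was at 5.10 and 8.43 CPM in mesenchymal-like and 0.829 and 0.430 CPM in stem-like cells (3.31 ± 0.45, adjusted p = 6.9e-05). *Rspo4* was at 2.88 and 2.84 CPM in endocrine-like cells, from 72 UMIs, and at 3 UMIs in stem-like cells, a ratio of 71.5 with counting limits of 23.5 and 355. *Rspo2* had 44 UMIs in stem-like cells and none in differentiating-like cells, at least 6.0-fold lower, but was too low to be tested between these classes. Pericyte markers, led by *Pdgfrb*, summed to 312 and 242 CPM in mesenchymal-like cells, and their part in these values was not tested.

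**Figure D3:**
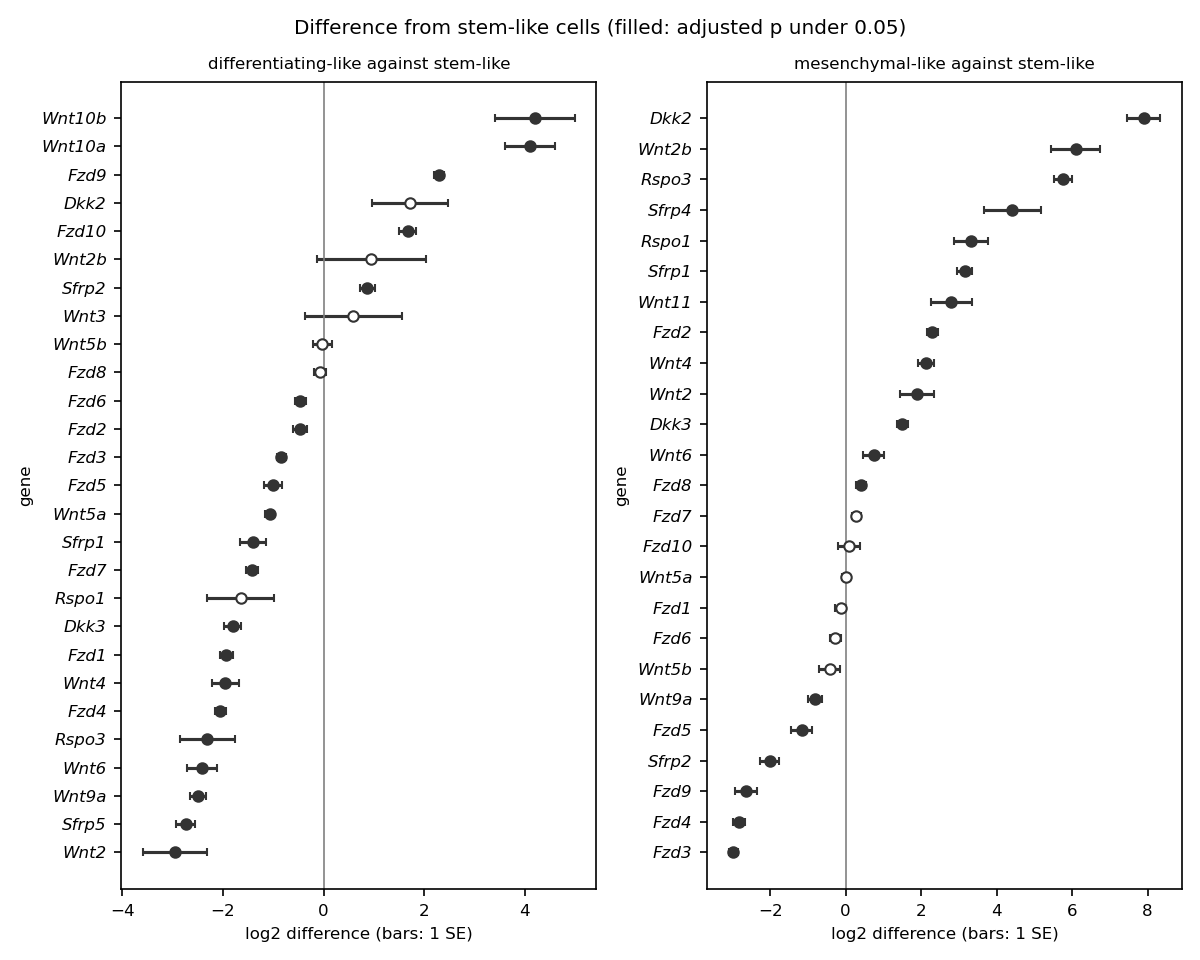
Log2 difference from stem-like cells, with bars of 1 SE, for the members in differentiating-like and in mesenchymal-like cells. Filled points passed an adjusted p of 0.05 in edgeR's quasi-likelihood test, members with 3 or fewer UMIs on a side are left out, and *Fzd9* and *Fzd10* lie to the right in differentiating-like cells where *Fzd4* and *Wnt9a* lie to the left.

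The 6 members that were higher in differentiating-like cells were *Fzd9*, *Fzd10*, *Sfrp2*, *Wnt10a*, *Wnt10b* and *Dkk1*. The 250 bases before the RefSeq start of the receptors and of *Dkk1* are shown because these windows differ in a short motif. They are written 5′ to 3′ on the gene's strand in GRCm38, in lower case, with capitals for CTTTGA and its reverse complement TCAAAG, core letters of the site bound by TCF and LEF factors. *Dkk1* (chr19:30549497-30549746, minus strand) held 2 matches, and *Fzd9* (chr5:135251048-135251297, minus strand) and *Fzd10* (chr5:128600856-128601105, plus strand) held none. GENCODE places the starts further upstream, so that 169 bases of the *Dkk1*, 183 of the *Fzd9* and all 250 of the *Fzd10* window lie inside the gene as it is annotated there.
Dkk1: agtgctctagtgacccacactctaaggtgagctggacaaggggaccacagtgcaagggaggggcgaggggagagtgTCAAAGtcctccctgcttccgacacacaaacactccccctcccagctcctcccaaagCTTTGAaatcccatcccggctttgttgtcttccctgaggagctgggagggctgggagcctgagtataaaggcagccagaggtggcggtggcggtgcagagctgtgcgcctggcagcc
Fzd9: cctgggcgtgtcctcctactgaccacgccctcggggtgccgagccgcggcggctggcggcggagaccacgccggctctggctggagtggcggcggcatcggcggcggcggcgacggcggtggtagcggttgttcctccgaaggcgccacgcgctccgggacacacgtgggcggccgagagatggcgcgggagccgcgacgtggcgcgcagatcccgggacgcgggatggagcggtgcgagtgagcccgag
Fzd10: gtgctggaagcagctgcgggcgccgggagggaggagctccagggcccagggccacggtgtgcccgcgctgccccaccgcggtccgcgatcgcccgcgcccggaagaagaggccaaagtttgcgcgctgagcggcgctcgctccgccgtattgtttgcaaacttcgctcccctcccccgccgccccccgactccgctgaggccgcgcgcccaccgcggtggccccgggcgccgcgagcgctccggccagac
Of the 32851 promoter windows that the RefSeq table holds, 13.8% of this length had the motif on either strand. A symbol match was found for 28 of the 42 members, of which 4 held it (*Dkk1*, *Fzd1*, *Wnt11* and *Wnt5b*), and for 5 of the 6 members above, of which *Dkk1* held it. The motif was in 1 of 2 *Wnt11* and 1 of 3 *Wnt5b* windows. These counts are of genes with any matching window, whereas the 13.8% is a share of windows. A match describes letters in the window only.

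Target genes and effectors of the pathway were read in the same sums. *Lef1*, the transcription factor that pairs with β-catenin, was at 136 and 141 CPM in differentiating-like and 8.44 and 8.52 CPM in stem-like cells (4.04 ± 0.11, adjusted p = 8.7e-10), *Sp5*, a direct target, at 30.4 and 19.4 against 2.16 and 1.55 CPM (3.75 ± 0.24, adjusted p = 2.2e-07), and *Axin2*, a feedback inhibitor, at 40.1 and 42.8 against 19.5 and 19.5 CPM (1.10 ± 0.09, adjusted p = 2e-06). Of 43 other pathway genes in a list of receptors, modulators and effectors, 31 reached 10 CPM in a class in both libraries. In differentiating-like cells 11 of these were higher and 11 lower, 35.5% each beside 22.5% and 28.5% of all genes, with a median log2 difference of -0.05. Of the 4 classes, *Sp5* and *Lgr5* reached 10 CPM in both libraries only in this one, so that the limit partly set their count as higher. In endocrine-like cells 6 were higher and 15 lower (19.4% and 48.4%, beside 31.7% and 32.3%), and in mesenchymal-like cells 13 were higher and 10 lower (41.9% and 32.3%, beside 25.1% and 30.0%). Of the 4 classes present in both libraries, *Adgra2*, *Reck* and *Ror2* reached 10 CPM in both only in mesenchymal-like cells. *Lgr6* and *Sostdc1* did so only in stem-like cells, so that the limit partly set their counts as lower. The shares of all genes carry no such limit, so that nothing is concluded from setting them side by side.

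*Tcf7l1*, a repressor form of TCF, was at 46.5 and 48.6 CPM in stem-like, 9.50 and 7.46 CPM in differentiating-like and 2.26 and 3.73 CPM in endocrine-like cells (-2.44 ± 0.14 and -4.22 ± 0.18). *Lgr6*, an R-spondin receptor, was at 18.9 and 16.7 CPM in stem-like cells and under 5 CPM in the other 3 classes, with log2 differences of -2.03, -3.88 and -3.66 in differentiating-like, endocrine-like and mesenchymal-like cells. The other R-spondin receptors, named after their values were seen, were higher in differentiating-like than in stem-like cells. *Lgr4* was at 162 and 137 against 98.2 and 81.2 CPM (0.75 ± 0.09, adjusted p = 2.4e-05), but lower in endocrine-like cells, at 28.3 and 27.0 CPM (-1.77 ± 0.10, adjusted p = 4.3e-08), and in mesenchymal-like cells, at 24.3 and 27.6 CPM (-1.84 ± 0.12, adjusted p = 1.7e-07). *Lgr5* was at 11.6 and 20.4 against 3.62 and 5.25 CPM (1.84 ± 0.24, adjusted p = 6e-05). *Sostdc1*, an extracellular inhibitor that binds LRP co-receptors, was at 20.4 and 30.0 CPM in stem-like and 3.49 and 3.02 CPM in differentiating-like cells (-2.87 ± 0.18, adjusted p = 2e-07). In the 10 pituicyte-like cells *Sostdc1* was at 131 CPM, from 17 UMIs, and *Lgr6* at 46.4 CPM, in a single sum without a replicate. In the mesenchyme, *Gpc3*, a WNT-binding proteoglycan, was at 752 and 833 CPM against 90.5 and 123 CPM in stem-like cells (2.90 ± 0.09, adjusted p = 1.8e-10). *Adgra2* and *Reck*, the partners of a receptor complex for WNT7 ligands, were at 62.8 and 77.0 CPM and at 34.3 and 39.1 CPM there, against 1.53 and 1.78 CPM and 1.83 and 2.47 CPM in stem-like cells (5.38 ± 0.17 and 4.10 ± 0.23). *Ror1*, a WNT5A co-receptor, was lower in endocrine-like cells (1.13 and 0.533 against 10.4 and 9.44 CPM; -3.42 ± 0.23), and *Tcf7l2* was lower in differentiating-like and endocrine-like cells (-0.79 ± 0.08 and -2.24 ± 0.09). *Lrp5*, a co-receptor, was at 11.9 and 10.6 CPM in stem-like cells lower in differentiating-like and endocrine-like cells (-0.42 ± 0.15 and -1.90 ± 0.20) and higher in mesenchymal-like cells (0.59 ± 0.18, adjusted p = 0.016). *Gpc4*, another proteoglycan, was at 13.7 and 17.4 CPM in stem-like and 7.08 and 8.63 CPM in differentiating-like cells (-0.97 ± 0.12), and was higher in endocrine-like (0.48 ± 0.11) and mesenchymal-like cells (0.38 ± 0.14). It was at 69.6 CPM, from 9 UMIs, in the 10 pituicyte-like cells.

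Stem-like cells were further divided into *Ednrb*-rich cells (at least 3 UMIs of this endothelin receptor gene; 367 male and 813 female) and *Aldh1a2*-rich cells (at least 3 UMIs of this retinoic acid synthesis gene and no *Ednrb*; 1321 and 972). A second fit over 11 sums and 15558 genes, in which 33 members were tested, called 6 members higher and 2 lower in *Ednrb*-rich cells, which is 18.2% and 6.06% of them, beside 4.7% and 3.99% of all genes (8.7% in either direction). *Wnt5a* was at 38.1 and 34.4 CPM in *Ednrb*-rich and 61.8 and 64.9 CPM in *Aldh1a2*-rich cells (log2 difference -0.89 ± 0.10, adjusted p = 7.1e-05), and *Fzd9* at 6.80 and 5.34 against 9.91 and 8.71 CPM (-0.74 ± 0.18, adjusted p = 0.016). The 6 that were higher in *Ednrb*-rich cells were *Wnt4*, *Wnt6*, *Fzd4*, *Fzd5*, *Sfrp5* and *Dkk3*. *Dkk3* was at 13.9 and 19.5 against 7.18 and 8.41 CPM (0.99 ± 0.15, adjusted p = 0.00098), and *Fzd5*, a receptor of the β-catenin branch, at 9.60 and 15.4 against 5.10 and 6.33 CPM (1.03 ± 0.19, adjusted p = 0.0035). *Wnt4* was at 8.57 and 7.64 against 3.09 and 3.86 CPM (1.16 ± 0.22, adjusted p = 0.0047), and *Sfrp5* at 19.8 and 18.6 against 8.07 and 11.6 CPM (0.90 ± 0.18, adjusted p = 0.0058). *Wnt6* was at 10.5 and 10.3 against 3.09 and 5.44 CPM (1.24 ± 0.27, adjusted p = 0.011), and *Fzd4* at 60.4 and 79.9 against 45.2 and 55.0 CPM (0.40 ± 0.10, adjusted p = 0.024). In each of these 8 genes the 2 *Ednrb*-rich values lay on 1 side of the 2 *Aldh1a2*-rich values. The genes were picked by a test on these same sums, which favours such a separation, so that it adds no support to the calls. *Lef1* was at 1.03 and 1.57 against 9.97 and 11.9 CPM (-3.09 ± 0.26, adjusted p = 5e-06). Of the 31 other pathway genes, 3 were higher and 7 lower in *Ednrb*-rich cells. Cells with at least 2 of 8 proliferation markers were 51.2% and 29.6% of *Ednrb*-rich and 32.0% and 20.6% of *Aldh1a2*-rich cells. Without cycling cells none of the 8 member calls above was lost. Without the library term 2 members were called (*Wnt4* and *Wnt5a*) and with DESeq2 3 (*Fzd5*, *Dkk3* and *Wnt5a*), and with stricter gates the calls of *Fzd9* and *Sfrp5* were lost.

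**Figure D4:**
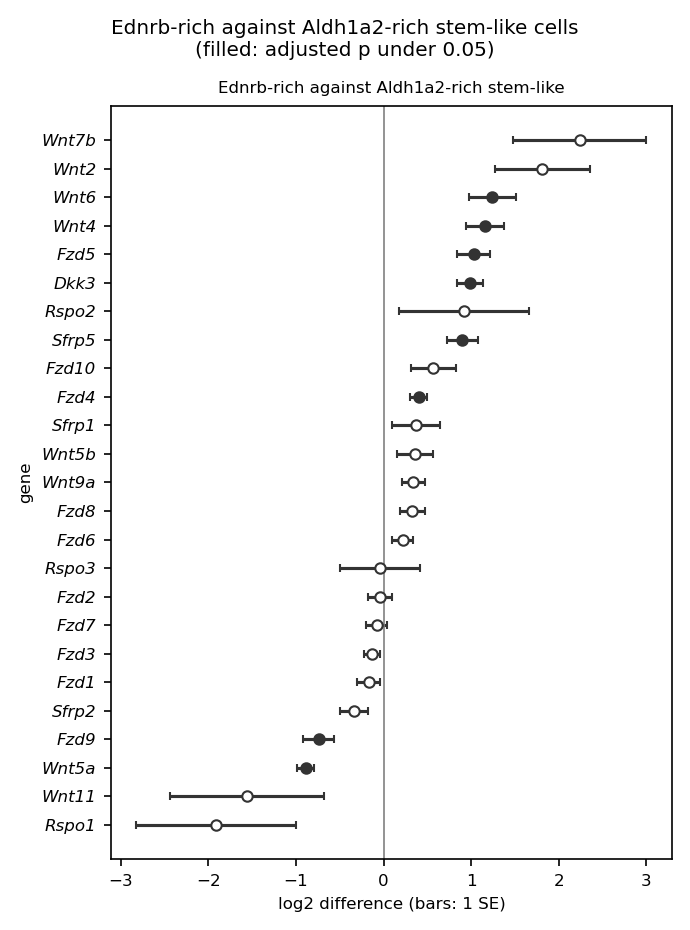
Log2 difference of members in *Ednrb*-rich against *Aldh1a2*-rich stem-like cells, with bars for the SE. Filled points passed an adjusted p of 0.05 in edgeR's quasi-likelihood test. *Wnt5a* was higher in *Aldh1a2*-rich cells (61.8 and 64.9 CPM against 38.1 and 34.4 CPM), and *Dkk3*, *Fzd5*, *Wnt4*, *Wnt6* and *Sfrp5* were higher in *Ednrb*-rich cells.

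Within the endocrine-like class, cells were set apart by lineage into 614 and 77 gonadotroph-like cells, 436 and 197 cells of the POU1F1 lineage, which makes growth hormone, prolactin and thyrotropin, and 238 and 109 cells of the POMC lineage, which makes ACTH and MSH. These were not tested against each other. *Wnt5b* was at 18.3 and 28.8 CPM in the POMC lineage, 7.0 and 6.12 CPM in the POU1F1 lineage and 1.30 and 0.919 CPM in gonadotroph-like cells. *Rspo4* was at 11.3 and 3.95 CPM in the POMC lineage, and at no more than 3.27 CPM in the others. *Wnt3* was at 1.45 and 5.64 CPM in the POMC lineage and had no UMI in the POU1F1 lineage. *Fzd9* had another order, with 28.4 and 58.8 CPM in gonadotroph-like, 10.9 and 12.7 CPM in POU1F1-lineage and 6.50 and 3.95 CPM in POMC-lineage cells, without overlap between the lineages. *Fzd3* was found in all of them, at 107 and 103 CPM in gonadotroph-like, 58.5 and 53.9 CPM in POU1F1-lineage and 69.6 and 103 CPM in POMC-lineage cells. Levels of the whole endocrine-like class therefore mix lineages in proportions that differed between the libraries.

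**Figure D5:**
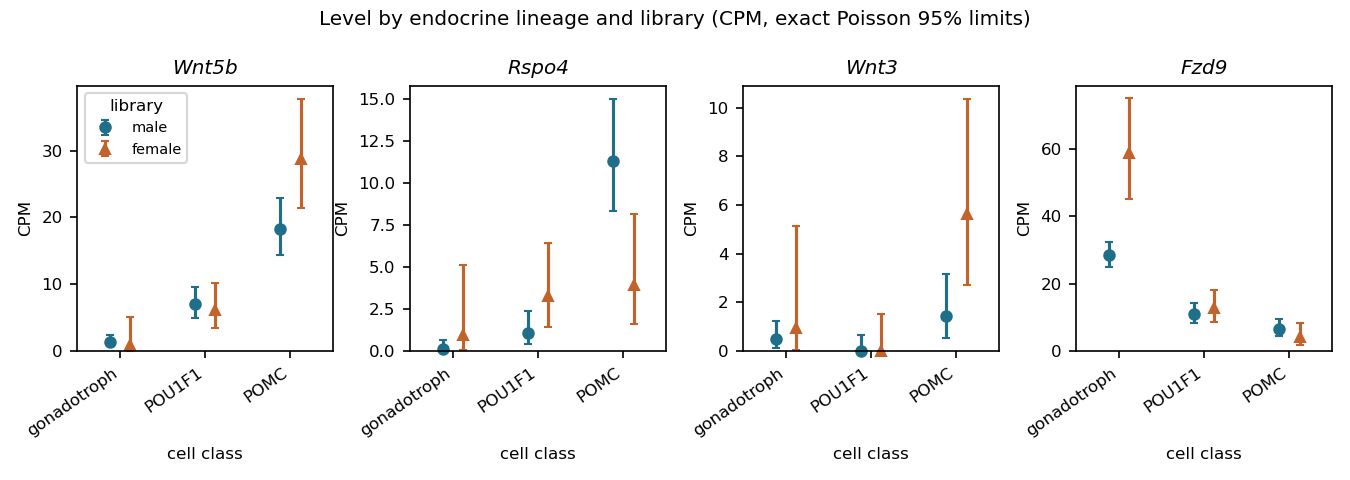
Levels in CPM of *Wnt5b*, *Rspo4*, *Wnt3* and *Fzd9* in gonadotroph-like, POU1F1-lineage and POMC-lineage cells, a point per library with exact Poisson 95% limits. *Wnt5b* and *Wnt3* were highest in the POMC lineage, as was *Rspo4*, though only narrowly in the female library. *Fzd9* was highest in gonadotroph-like cells, and the lineages were not tested.

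The pituicyte-like sum came from 10 male cells with 129362 UMIs, and has no replicate, so that its SEs and p-values assume that it varies like the other sums and hold no spread of its own. There, 1 member was higher and 1 lower than in stem-like cells, 3.12% each, beside 2.63% and 3.26% of all genes (5.89% in either direction). *Fzd5* was at 371 CPM, from 48 UMIs, against 6.65 and 10.5 CPM in stem-like cells (log2 difference 5.41), and gave 43.6% of the Frizzled sum of 850.3 CPM. *Fzd3* was at 92.8 CPM (log2 difference -1.42, and -1.13 when libraries were scaled to total UMIs). Its call was lost with that scaling and with *Lef1* among the differentiating markers. *Fzd2* was at 201 CPM, *Sfrp2* at 178 CPM and *Wnt5b* at 46.4 CPM. No UMI of a Dickkopf or R-spondin gene was seen in these cells, where 3 counts would be 23.2 CPM, so that lower levels were not detectable at this depth.

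Male and female cells of a class were compared by level only, since each sex was 1 library. Of the members with at least 50 UMIs in stem-like cells in a library, 20 in all, none had a male and 7 a female level that was higher with 95% counting limits of the ratio that left out 1, beside 19.9% and 14.3% of 12984 genes. These 7 were *Fzd2*, *Fzd4*, *Fzd5*, *Fzd8*, *Wnt6*, *Wnt9a* and *Dkk3*, with male over female ratios from 0.635 (*Fzd5*) to 0.793 (*Fzd2*). Since there were 367 male but 813 female *Ednrb*-rich cells, the sexes also differed in the mix of stem-like cells. In mesenchymal-like cells, *Dkk2* had the lowest ratio, 0.420 with limits of 0.311 and 0.565, as 1 of 13 members higher in the female library (4.43% of 8558 genes), and *Fzd3* was 1 of 13 higher in the male library (1.56, limits 1.001 and 2.46; 8.85% of genes). In differentiating-like cells *Wnt10a* (1.92) and *Sfrp2* (1.26) were higher in the male and *Fzd2* and *Fzd4* in the female library, 2 of 16 members each, beside 12.2% and 6.86% of 11315 genes. In endocrine-like cells *Sfrp2*, *Wnt5b* and *Fzd2* were higher in the female library (ratios 0.563, 0.567 and 0.466), 3 of 13 members beside 8.05% of 11871 genes. None of the 13 was higher in the male library, beside 13.7% of genes. These limits cover counting error only, and sex cannot be told apart from library.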

How the data were processed

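Cells sorted for SOX9iresGFP were measured as 1 droplet 3′ library of each sex. The authors aligned the reads to mm10 with Cell Ranger 3.0.2 and STAR 2.5.1b and deposited raw counts of UMIs per gene and barcode, whole numbers without normalization. The submitters' processing notes also name R 3.6.0 and Seurat 3 and 4. Gene positions are those of GENCODE vM21; no exon of a member overlapped another gene's on the same strand.

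The members, marker lists, pathway list and gates were chosen with earlier results of these data known, and the UMI limits of the gates were set on the distributions of the markers. Cells needed 50 genes and a mitochondrial share no more than 3 SD above their library's mean (20.4% male, 26.1% female), which took out 159 and 85 of 10569 and 5796 barcodes. The methods name no doublet step, and none were removed; in an alternative, the 867 male and 261 female cells with the highest Scrublet scores were left out (scanpy 1.11.5).

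UMIs were summed per class and library and tested in edgeR 4.0.16 (R 4.3.3, limma 3.58.1) with TMM scaling, glmQLFit and glmQLFTest, class and library as terms and an adjusted p of 0.05, with 3 and 4 residual degrees of freedom. The script was tested on simulated data. Intervals are exact Poisson or Clopper-Pearson 95% limits. Alternatives were DESeq2 1.42.0, total-UMI scaling, no low-count filter, no library term, stricter gates, *Lef1* among the markers, at least 1000 genes per cell, cells without high Scrublet scores, no cycling cells and each library alone. Named with values were members at 10 CPM in both libraries in a class with 30 UMIs, every member called, and, of the pathway list, the 12 called genes with the largest log2 differences among comparisons with more than 3 UMIs on each side, beside *Axin2*, *Lgr4* and *Lgr5*, added after their values were seen.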

Additional observations from a re-analysis of the deposited data

Results flagged for a closer look

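*Rspo3* stood on opposite sides of stem-like cells in the 2 libraries. In endocrine-like against stem-like cells the ratio of its levels was 0.383 for males and 1.89 for females, with counting limits that left out 1 on opposite sides. The difference between the libraries was not tested, as each sex was 1 library. *Rspo3* was at 0.875 and 3.91 CPM in male and female endocrine-like cells, and at 1.97 and 7.75 CPM in those of the POU1F1 lineage. The 9 mesenchymal markers, led by *Col1a2* at 14.9 and 27.0 CPM, summed to 35.2 and 42.8 CPM in endocrine-like cells, where *Pdgfra* was at 0 in the female library, and the POU1F1-lineage markers summed to 3718 and 23440 CPM. The part of either in the result was not tested. Of 66 pairs of a comparison and one of the 17 members that reached 10 CPM, 8 had ratios on opposite sides of 1 in the libraries, this one included. The others were *Fzd1*, *Fzd3*, *Fzd7* and *Rspo3* between *Ednrb*-rich and *Aldh1a2*-rich cells, *Fzd1* and *Wnt5a* in mesenchymal-like against stem-like cells, and *Wnt4* in endocrine-like against stem-like cells, none of which was called.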

How the results depend on the processing

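The number of members called stayed within 1.5 times its value in differentiating-like (20 to 27, against 24), endocrine-like (19 to 26, against 23) and mesenchymal-like cells (17 to 21, against 20) under every alternative tested, the settings with a library left out having no test. In pituicyte-like cells 4 members were called without a low-count filter (6.9% of all genes), 5 with DESeq2 (7.25%) and 1 with *Lef1* among the differentiating markers (5.62%), and in *Ednrb*-rich cells 2 without the library term (2.33%) and 3 with DESeq2 (3.63%); the cause was not tested. The library term is the replicate block of these fits. No called log2 difference with more than 3 UMIs on each side reversed, and those with a value from each library alone kept their direction there. Of 621 pairs of a called difference and an alternative with a test, 31 lost the call, 12 of them with DESeq2 and 9 without the library term. These pairs include differences of the pituicyte-like sum, which has no replicate. Without cycling cells 2 calls were lost, *Fzd8* in mesenchymal-like cells (log2 difference 0.28) and *Wnt10a* in endocrine-like cells (1.75, against 1.83 with cycling cells). *Wnt6* in mesenchymal-like cells was lost under 3 alternatives and *Fzd8* there under 4. With total UMIs in place of TMM, the median of all genes moved by 0.29 (log2) in pituicyte-like cells. With the same change, the share of calls that were higher rose from 54.1% to 73.5% in *Ednrb*-rich cells (48.9% with DESeq2). At this depth 7 of the 19 WNT ligands and 2 of the 5 Dickkopf genes were too low to be tested, and low depth and absent expression were not told apart.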
